A study of Homo sapiens with 4 samples.

Results

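The genes described here are the nuclear genes of mitochondrial complex I, its subunits and its assembly factors, taken as those protein-coding genes of RefSeq (build GRCh38, autosomes and X chromosome) whose symbols start with NDUFA, NDUFB, NDUFC, NDUFS, NDUFV or NDUFAF. The 45 described here stand among 19974 protein-coding genes and were picked by symbol alone, although the group was proposed with earlier results of these peak lists known. They divide into 6 core subunits, 30 accessory subunits, 8 assembly factors and the readthrough gene NDUFC2-KCTD14, which shares its span with NDUFC2. The 45 genes are short, with a median length of 12.6 kb against 24.2 kb over all protein-coding genes, and they run from 2.0 kb (NDUFAF8) to 223 kb (NDUFAF6). NDUFA4 and NDUFA4L2 are named COXFA4 and COXFA4L2 in RefSeq and so are not members.

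The study measured H3K4bhb, histone H3 beta-hydroxybutyrylated at lysine 4, with an antibody to the mark by ChIP-seq (sequencing of immunoprecipitated chromatin) in HK-2, an established cell line of human renal tubular epithelium. One treatment was hydrogen peroxide (H2O2), an oxidant, and the other was H2O2 after pretreatment with sodium beta-hydroxybutyrate (BHBNa), the salt of a ketone body, so that both groups received H2O2 and no untreated cells were compared. The labels used here state no dose or time. Each of the 2 treatments had 1 immunoprecipitated (IP) library and 1 control library, which the titles call IgG and the library names call input, and each gave 1 list of peaks, here called the H2O2-only list and the BHBNa list. With 1 library a group no difference has a replicate check, no test exists, and every comparison describes these libraries alone. Peak lists carry no expression values, so the cell type could not be checked against marker genes.

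Complex I is the enzyme through which electrons from NADH enter the respiratory chain, and it moves protons across the inner mitochondrial membrane as it passes them to ubiquinone. A peripheral arm in the matrix holds the NADH and iron-sulfur sites, a membrane arm pumps the protons, and assembly factors join the parts without staying in the finished enzyme. Most subunits are encoded in the nucleus, and renal tubular cells, which depend on oxidative phosphorylation for solute transport, are rich in mitochondria. Histone beta-hydroxybutyrylation is a lysine acylation that draws on beta-hydroxybutyrate.

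Peaks near promoters are the ones usually read as marks of a gene's control, so the promoters of 3 members whose BHBNa peak lay within 5 kb of the start are shown first. NDUFS4 and NDUFS6 had the lowest q among members with a listed start, and summits of the treatments fell on either side of the listed NDUFA5 start. Each sequence is RefSeq's for GRCh38.p14, 300 bases from 250 before to 50 after the gene start, 5′ to 3′ on the strand of the gene, and capitals mark CpG dinucleotides.
NDUFS4 (chr5:53560389-53560688, plus strand): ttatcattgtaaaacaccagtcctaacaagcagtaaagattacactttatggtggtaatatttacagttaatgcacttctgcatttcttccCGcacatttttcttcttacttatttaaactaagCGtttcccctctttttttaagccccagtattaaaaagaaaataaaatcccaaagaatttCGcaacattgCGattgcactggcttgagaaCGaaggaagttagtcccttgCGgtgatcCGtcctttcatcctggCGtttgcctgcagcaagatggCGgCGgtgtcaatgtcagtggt
NDUFS6 (chr5:1801157-1801456, plus strand): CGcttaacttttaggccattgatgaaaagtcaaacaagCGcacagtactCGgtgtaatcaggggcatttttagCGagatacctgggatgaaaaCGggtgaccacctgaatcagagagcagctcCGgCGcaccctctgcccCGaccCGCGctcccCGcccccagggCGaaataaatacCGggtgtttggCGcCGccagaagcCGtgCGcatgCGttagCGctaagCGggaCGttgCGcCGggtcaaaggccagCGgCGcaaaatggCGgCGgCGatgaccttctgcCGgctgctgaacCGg
NDUFA5 (chr7:123601602-123601901, minus strand): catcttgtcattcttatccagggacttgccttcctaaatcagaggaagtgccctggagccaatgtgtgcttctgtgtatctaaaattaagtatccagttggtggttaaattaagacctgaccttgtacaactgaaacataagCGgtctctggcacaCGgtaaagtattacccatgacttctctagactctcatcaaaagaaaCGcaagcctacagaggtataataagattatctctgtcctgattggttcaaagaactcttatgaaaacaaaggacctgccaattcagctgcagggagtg
NDUFS6 has a CpG-rich promoter, with 30 CpG in the window and 60.3% G or C. NDUFS4 has 10 CpG and 40.3% G or C, the lowest G and C share of the 40 members listed in the promoter table. The window at the listed start of NDUFA5 has 3 CpG, the fewest of the 40, and 42.0% G or C. Other transcript starts of NDUFA5 were not considered, so this window may not be its main promoter. The median was 23.5 CpG over the 40 members and 22 over 15812 listed protein-coding genes. No peak of either list overlapped any of the 40 member promoters. Such overlap was rare over all listed promoters too, of which 2 (0.0126%) were overlapped in the H2O2-only list and 7 (0.0443%) in the BHBNa list.

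The title of the study ties the mark to mitochondrial energy production, and the question here is which complex I genes carried it under each treatment. A gene was counted as holding a peak when the peak summit lay within its span or up to 1 kb outside. In the H2O2-only list 4 of 45 members held one, NDUFB5, NDUFB6, NDUFAF2 and NDUFAF4, which is 8.89% (95% Wilson interval 3.51 to 20.7) against 8.00% of all genes. In the BHBNa list 8 of 45 did, NDUFS4, NDUFS6, NDUFA5, NDUFA12, NDUFB5, NDUFAF2, NDUFAF6 and NDUFAF7, which is 17.8% (9.29 to 31.3) against 15.5% of all genes. Both shares were thus near the share over all genes, a background not matched for gene length. The intervals treat the 45 members as independent draws at a common rate, although the share with a peak depends on gene length, as described next. All 16 summits lay inside the gene spans. NDUFB5 and NDUFAF2 were in both lists, 2 members in the H2O2-only list alone and 6 in the BHBNa list alone, and 35 members were in neither. Of all genes, 868 (4.35%) were in both lists, out of 1597 and 3087, so the 2 of 45 members were near that share.

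The share of genes with a peak rose with gene length. Among genes under 10 kb, 0.566% held a peak in the H2O2-only list and 1.04% in the BHBNa list, and among those of 40 kb or more 19.3% and 34.6%. When the share of genes with a peak was taken in each of 20 bins of gene length and summed over the members, it came to 1.66 members in the H2O2-only list and 3.76 in the BHBNa list, against 4 and 8 observed. For presence in both lists the sum over the bins was 0.616, against 2 observed. With the 20 genes nearest in length on the same chromosome as each member, the sums for the separate lists were 1.75 and 3.6. The member counts thus stood above those sums in both lists, with no test of the difference. This was known from earlier work on these peak lists and is not independent evidence of H3K4bhb at these genes. By class of length, the 18 members under 10 kb held 1 gene with a peak in the H2O2-only list (NDUFAF4) and 0 in the BHBNa list. The 19 members of 10 to 40 kb held 2 and 4, where 2.01% and 6.80% of genes that long had a peak. The 8 members of 40 kb or more held 1 and 4.

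**Figure D1:**
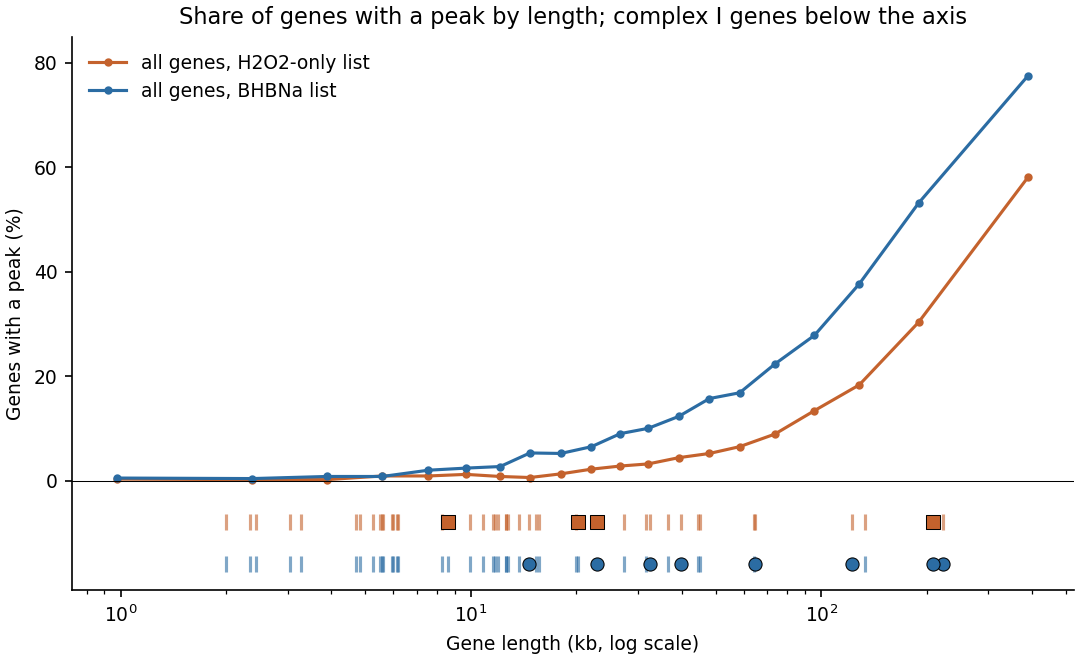
Percent of all protein-coding genes with a peak in each of 20 bins of gene length (vertical axis, %) against the median length of the bin (kb, log scale), one line per peak list. Below the axis the 45 complex I genes stand at their lengths, in an upper row for H2O2 and a lower row for BHBNa; filled symbols hold a peak (4 and 8) and ticks do not. The BHBNa symbols all stand above 14 kb.

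NDUFS4, an accessory subunit of the NADH-oxidising end of the peripheral arm whose loss causes Leigh syndrome, spans 123 kb (chromosome 5, 53560639 to 53683338). It held the lowest q of all member peaks, 0.0191, in the BHBNa list alone. That peak, at 53565075 to 53565453, had 4 IP fragments over a control background of 0.178 and a fold enrichment of 4.25, and its summit lay 4.61 kb into the gene from its start. The H2O2 summit nearest to that one was 232 kb away. Of the 200 genes nearest to NDUFS4 in length, 39.0% held a BHBNa peak. NDUFS6, a zinc-binding subunit of the same arm, is a gene of 14.6 kb (chromosome 5, 1801407 to 1816048), the shortest with a peak in the BHBNa list. Its peak, at 1803623 to 1803967, had 3 fragments over a background of 0.102, a fold of 3.63 and q = 0.0484, and its summit lay 2.29 kb after the start. Of the 200 genes nearest to NDUFS6 in length, 3.5% held a peak in that list. The H2O2 summit nearest to the NDUFS6 gene lay 2790 kb from it.

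NDUFA5, a subunit near the foot of the peripheral arm, spans 64.7 kb (chromosome 7, 123536997 to 123601651) and overlaps ASB15, so its peak counts for both genes. The BHBNa peak, at 123597769 to 123598073, had 3 fragments, a fold of 3.37 and q = 0.149, with its summit 3.59 kb after the start. A BHBNa peak was held by 18.5% of the 200 genes nearest to NDUFA5 in length. An H2O2 peak at 123603231 to 123603561 had 5 fragments, a fold of 4.25 and q = 0.118, with its summit 1.84 kb before the start and so just outside the 1 kb limit. ASB15 was the gene at this summit as well. The 2 summits stood 5.43 kb apart on either side of the listed NDUFA5 start. That was the shortest distance of a member summit to one of the other list. Only 1 start per gene was used, so other transcript starts of NDUFA5 were not considered. NDUFA12, which sits on the peripheral arm, spans 32.4 kb (chromosome 12, 94971333 to 95003697). Its BHBNa peak, at 94975202 to 94975485, had 3 fragments, a fold of 2.87 and q = 0.326, and lay 28.4 kb from the start, toward the far end of the gene. Among the 200 genes nearest to NDUFA12 in length, 8.5% held a BHBNa peak.

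NDUFB5 and NDUFB6 are subunits of the membrane arm. NDUFB5 (chromosome 3, 179604794 to 179627647, 22.9 kb) held a peak in each list. Of the 200 genes nearest to it in length, 3.0% held an H2O2 peak and 6.0% a BHBNa peak. The H2O2 peak, at 179614439 to 179614743, had 6 fragments, a fold of 3.35 and q = 0.42. The BHBNa peak, at 179625254 to 179625581, had 5 fragments, a fold of 3.61 and q = 0.187. These were the most fragments of any member peak in the respective list, but the summits were 10.8 kb apart and the peaks did not overlap. The control background was also the highest of the member peaks in both lists, 1.09 and 0.661 fragments, or 3.97 and 6.47 times the lowest level of the list. In the former list 6.81% of all peaks had a background as high, and in the latter 0.547%, and its part in the NDUFB5 peaks was not tested. NDUFB6 (chromosome 9, 32553001 to 32573159, 20.2 kb) held a peak in the H2O2-only list alone, at 32571347 to 32571665, with 5 fragments, a fold of 3.63 and q = 0.313. Its summit lay 1.77 kb after the start, the closest to a listed start of all member summits. Of the 200 genes nearest to NDUFB6 in length, 0.5% held an H2O2 peak.

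Among the assembly factors, NDUFAF6, a factor of early assembly and the longest member (chromosome 8, 94895799 to 95118496), held 4 peaks in the BHBNa list and none in the H2O2-only list, whose nearest summit was 395 kb from the gene. The 4 summits spread over 113 kb and carried 2, 3, 2 and 4 fragments from the lower to the upper coordinate. The highest, at 95019397 to 95020241, was 845 bp wide, the widest member peak, with a fold of 3.92 and q = 0.0633. The one at 94941163 to 94941434 also lies in TP53INP1, which shares the region. Genes of similar length averaged 0.97 peaks in the BHBNa list, and 4 of the 200 nearest in length held at least as many as NDUFAF6. Of those 200, 57.5% held a BHBNa peak and 31.5% an H2O2 peak.

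NDUFAF2 is a paralogue of NDUFA12 that occupies its place late in assembly. It spans 208 kb (chromosome 5, 60945205 to 61153026) and held 1 peak in each list, 18.8 kb apart and both far from the start. The H2O2 peak, at 61090818 to 61091077, had 4 fragments, a fold of 3.51 and q = 0.348, at 146 kb from the start. The BHBNa peak, at 61109522 to 61109987, had 2 fragments, a fold of 2.56 and q = 0.326, at 164 kb from the start. At that length 34.5% and 54.5% of similar genes held a peak in the respective lists.

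NDUFAF4, which helps to build the part of the peripheral arm that holds the ubiquinone site, is the shortest member with any peak (chromosome 6, 96889315 to 96897891, 8.58 kb). Its H2O2 peak, at 96893358 to 96893814, had 4 fragments, a fold of 3.26 and q = 0.494, with a summit 4.25 kb after the start, at the middle of the gene. Of the 200 genes nearest to NDUFAF4 in length, 1.5% held an H2O2 peak. The nearest BHBNa summit was 95.7 kb from that of NDUFAF4. NDUFAF7, a methyltransferase of complex I assembly, spans 39.7 kb (chromosome 2, 37231658 to 37271365) and held 2 peaks in the BHBNa list alone. They lay 7.04 and 28.7 kb after the start with 2 fragments each, folds of 2.68 and 2.56 and a q of 0.326 for both. The second summit also lies in PRKD3, a protein kinase gene. Of the 200 genes nearest to NDUFAF7 in length, 16.0% held a BHBNa peak, and 4 held at least as many as NDUFAF7.

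**Figure D2:**
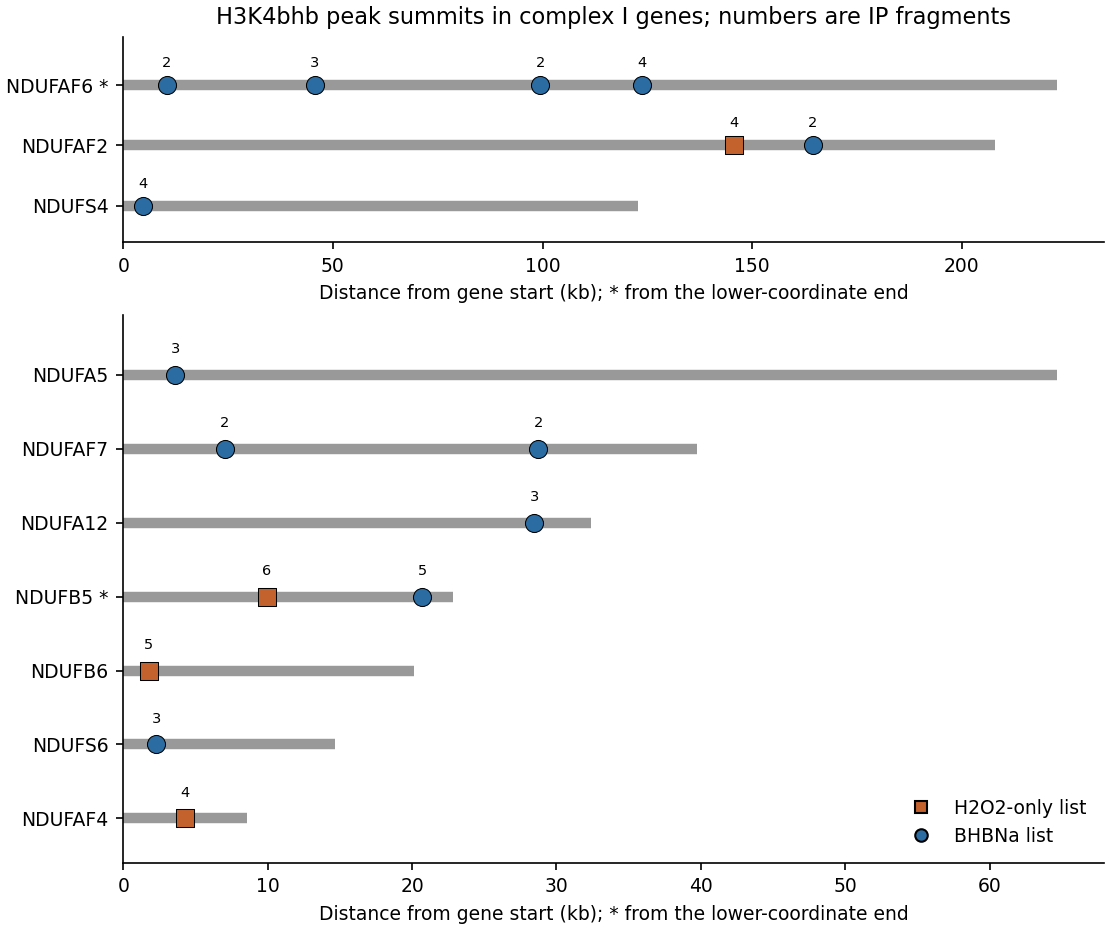
Positions of the 16 peak summits in the 10 complex I genes that hold one. Grey bars are the genes, drawn from the gene start (horizontal axis, kb; from the lower-coordinate end for genes marked with an asterisk, which have no listed start), in an upper panel for the 3 longest and a lower panel for the others. Squares are H2O2 summits, circles BHBNa summits, and the number above each is its IP fragments; no square and circle coincide.

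Position in the gene could be measured from a listed start for 3 of the 4 H2O2 peaks and 7 of the 12 BHBNa peaks. Within 5 kb of the start lay 2 of the 3 (NDUFB6 and NDUFAF4) and 3 of the 7 (NDUFS6, NDUFA5 and NDUFS4). Peaks in other genes within 1.5 times the length of each member lay that close at rates that would place 0.88 of the 3 and 0.889 of the 7 there. All 5 summits lay after the start, but the 1 kb limit left out any summit further than 1 kb before a start. Summits left out in this way are given above for NDUFA5 and below for NDUFB8 and NDUFA2. Within 1 kb of the start there were 0 in both lists, where 0.907% and 1.58% of peaks in other genes of the members' range of lengths lay. The table of genes gives spans only, so exon, intron and UTR were not assigned.

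No member peak of one list overlapped a peak of the other, and few peaks did so anywhere, 1.19% of all H2O2 peaks and 0.637% of all BHBNa peaks, so the absence of overlap is near the background. The summit of the other list nearest to a member summit was a median of 47.5 kb away for the 4 H2O2 peaks (10.8 to 95.7) and 284 kb for the 12 BHBNa peaks (5.43 to 2802). Over all peaks these medians were 74.0 and 152 kb. The members held 2.76 H2O2 peaks per Mb and 8.27 BHBNa peaks per Mb of their spans with 1 kb on each side. All genes together held 1.83 and 3.76 per Mb. At the density of all genes the members would hold 2.66 and 5.45 peaks, against 4 and 12 observed, and 4 of the 12 were in NDUFAF6.

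The peaks rested on few fragments. Their number at the summit ranged from 4 to 6 in the 4 H2O2 peaks (median 4.5) and from 2 to 5 in the 12 BHBNa peaks (median 3.0), where all peaks of these lists had medians of 4.0 and 2.0. Exact 95% Poisson intervals, which cover counting error only, run from 0.242 to 7.22 for 2 fragments, from 0.619 to 8.77 for 3 and from 2.2 to 13.1 for 6. Member peaks had median folds of 3.43 and 3.12, against 3.51 and 2.72 for all peaks of the respective list. Exactly 2 fragments supported 5 of the 12 BHBNa member peaks, 41.7%, and 51.9% of all peaks of that list. The H2O2-only list held no such peak. At the lowest control background of each list (0.274 and 0.102 fragments, which scales with IP depth and differed 2.69-fold, the H2O2-only list being higher) a peak passed the authors' limit with 3 fragments in the H2O2-only list and with 2 in the BHBNa list. Depth and treatment cannot be told apart for such peaks. With at least 3 fragments required, 4 and 6 members held a peak, against 8.00% and 8.46% of all genes. In those counts NDUFAF2 and NDUFAF7 left the BHBNa list and NDUFB5 alone was in both.

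**Figure D3:**
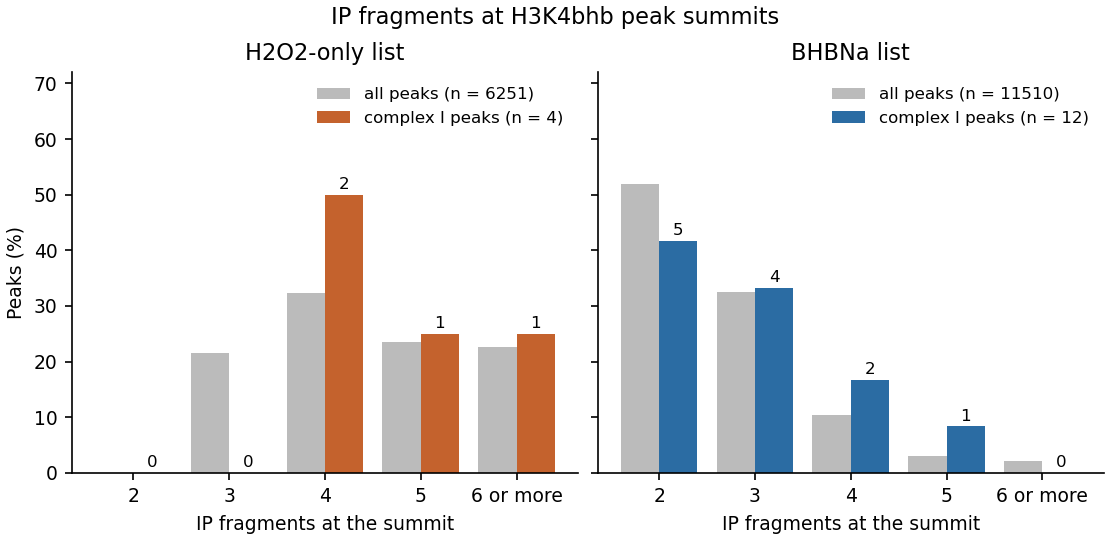
Percent of peaks (vertical axis) by the number of IP fragments at the summit, for the H2O2-only list (left) and the BHBNa list (right). Grey bars are all peaks of the list, coloured bars the peaks in complex I genes, with their number above; 5 of the 12 BHBNa member peaks had 2 fragments.

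Of the member peaks, 0 of 4 passed a limit of 0.05 on q in the H2O2-only list and 2 of 12 did so in the BHBNa list, those of NDUFS4 and NDUFS6. Over all peaks the shares were 7.23% and 15.2%. Of all genes, 0.766% and 3.16% held a peak at that limit, and genes of similar length gave 0.118 and 0.607 members. Both genes encode subunits of the peripheral arm, as do NDUFA5 and NDUFA12, whose BHBNa peaks did not pass. NDUFA2, another subunit of that arm, held no peak in either list. Nor did any of the 6 core subunits, where 8.00% and 15.5% of all genes held one. The NDUFS6 peak sat at the lowest background of the BHBNa list with 3 fragments, just inside the limit at a q of 0.0484. The next member peak, the highest of NDUFAF6, was just outside it at 0.0633.

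Most members held no peak, 41 in the H2O2-only list and 37 in the BHBNa list. The 3 longest without one in a list were NDUFAF6, NDUFA10 and NDUFS4 for H2O2 and NDUFA10, NDUFC2-KCTD14 and NDUFA9 for BHBNa. NDUFA10, a subunit of the membrane arm of 133 kb, had none in either list, where 18.0% and 35.5% of genes of its length did. Distances from a gene without a peak to the nearest summit ran from 1.84 to 5578 kb in the H2O2-only list (median 430.3) and from 3.51 to 958 kb in the BHBNa list (median 143). Over all 45 members the median distance was 394 and 91.9 kb, and over all genes 320 and 90.6 kb. After NDUFA5, the member nearest to an H2O2 summit outside the limit was NDUFB8, a membrane arm subunit, with a summit 3.89 kb before its start (4 fragments, q of 0.494). In the BHBNa list these were NDUFA9, which lies where the arms meet, with a summit 3.51 kb past its far end, and NDUFA2, a small subunit of the peripheral arm, with one 4.35 kb before its start. The NDUFA9 and NDUFA2 peaks had 2 fragments each and a q of 0.326. With a limit of 5 kb instead of 1 kb, 6 and 10 members held a peak, against 8.73% and 17.4% of all genes and sums over genes of similar length of 1.96 and 4.61 members.

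**Figure D4:**
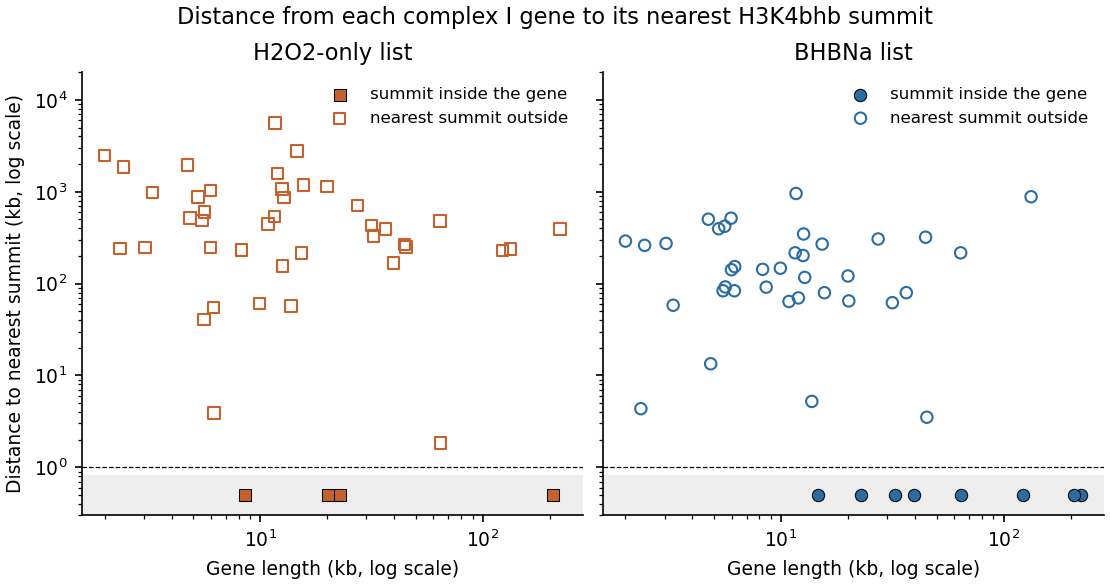
Distance from each of the 45 complex I genes to its nearest summit (vertical axis, kb, log scale) against gene length (kb, log scale), for the H2O2-only list (left) and the BHBNa list (right). Filled symbols in the grey band have a summit inside the gene (4 and 8 genes), open symbols do not, and the dashed line is the 1 kb limit; NDUFA5 is the open square nearest to that line.

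Other genes of oxidative phosphorylation, 86 in lists chosen with earlier results known, together held fewer genes with a peak than their lengths would give. There were 1 in the H2O2-only list and 3 in the BHBNa list against 2.43 and 5.58, where 8.00% and 15.5% of all genes held a peak. The separate lists did not all fall below their length sums. The 13 complex I assembly genes with other symbols gave 1 and 1, against length sums of 0.943 and 1.65. Among these, NUBPL, which delivers iron-sulfur clusters and spans 299.8 kb, held 2 H2O2 peaks of 4 fragments each (folds 3.44 and 3.52). ACAD9, an acyl-CoA dehydrogenase that also assembles complex I, held 1 BHBNa peak of 2 fragments. Complex II with 8 genes, complex III with 15 and complex V with 21 held none in either list, with length sums below 1 in every case. Of 29 genes of complex IV and cytochrome c, 0 and 2 held a peak, against length sums of 0.677 and 1.675. The 2 were COX16, an assembly factor, and LRPPRC, which stabilises mitochondrial messenger RNAs, each on 2 fragments. The difference between the members and these genes was not tested.

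Letters of known motifs in the promoters were counted on both strands in the 40 listed members and in all 15812 listed promoters of the same length. Nuclear respiratory factor 1 (NRF1) is a known activator of respiratory chain genes. Its full consensus occurred in 4 of the 40 members, 10.0%, and in 2.06% of all promoters. Its core TGCGCA, which the full consensus can contain, occurred in 12 of 40, 30.0%, and in 10.8% of all. The ETS core CCGGAAG occurred in 6 of 40, 15.0%, and in 14.2% of all, and CCAAT in 11 of 40, 27.5%, and in 36.3% of all. Of the 8 listed members with a peak in either list, 3 held TGCGCA, namely NDUFA12, NDUFS6 (in the promoter printed above) and NDUFAF4, and NDUFA12 held the full consensus. Of the 32 without a peak, 9 held TGCGCA. Both forms were chosen after the counts of another form of this motif were seen. A match is a description of letters, not of binding.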

How the data were processed

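Per the submitters' processing notes, tools included fastp 0.20.1, Bowtie2 2.4.2 and MACS2 2.2.7.1 on GRCh38. Settings and read totals: not given in the sources used here. Per peak, the deposited values are a score (10 times the −log10 p, without decimals), a ratio (fold enrichment over control background), the −log10 of p and of q, and a summit offset. The BED and narrowPeak files of a treatment held the same peaks in 100% of rows with starts 1 base apart, so starts were read as counted from 1. The lowest −log10 p was 3.00. The lists held 6251 and 11510 peaks, 6232 and 11464 of them on chromosomes 1 to 22 and X.

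IP fragments and control background were recovered from the fold, (fragments + 1) over (background + 1), and the Poisson p. Recovered values matched the deposited p within 0.001, absolute or as a proportion, in 100% of peaks. Genes came from the RefSeq table (GRCh38.p14), strand and start from its promoter table (40 of 45 members). Members and lists were chosen with earlier results of these data known. Every member with a peak was named, as were, of those without, the 3 longest and the 2 nearest to a summit in each list. NDUFS5, NDUFC2, NDUFB5, NDUFAF6 and NDUFB9 had no promoter entry. A gene that meets the rule is not reported here, and every member count leaves it out. Alternatives changed the window, the peak limit, the member set and the length bins. The scripts, tested on simulated data, used scipy 1.17.1, pandas 2.3.3, numpy 2.4.6 and Python 3.11.15.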

Additional observations from a re-analysis of the deposited data

How the results depend on the processing

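No paired analysis was possible because there was 1 library in each group, which also leaves no replicate to omit. Leaving out summits near a second protein-coding gene was chosen after seeing the data. Values give H2O2, then BHBNa, then both lists. Members with a peak numbered 4, 8 and 2, against 8.00%, 15.5% and 4.35% of all genes. At a q of at most 0.05 they numbered 0, 2 and 0, against 0.766%, 3.16% and 0.170% of all genes. Genes of similar length then gave 0.118 and 0.607 members. With at least 3 fragments 1 member was in both lists and the length sum for BHBNa was 1.76. With as many peaks taken from the longer list as the shorter holds, 1 was in both lists, against 2.97% of all genes. In the BHBNa list 5 were then found, against 10.1% of all genes and a length sum of 2.34. Among subunits alone there were 2, 5 and 1, with length sums of 0.942 and 2.37 and the same shares of all genes as in the main count. With summits of the lists within 1 kb of each other required, 0 members were in both, a count made for the members only. Over all peaks, 1.19% of H2O2 peaks and 0.637% of BHBNa peaks overlapped a peak of the other list. Counts under the other windows, by overlap, without NDUFC2-KCTD14 and without summits near a second protein-coding gene, and length sums in other bins, stayed within 1.5 times. Leaving out the summits near a second gene gave 4, 7 and 2, NDUFA5 leaving, against 7.63%, 14.6% and 4.16% of all genes. Member peaks rested on 2 to 6 fragments each, and library depth is not given in the sources used here.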

Other observations

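A small nucleolar RNA (snoRNA) gene stood next to 1 member summit in each list, in different members, a feature noticed after the values were seen. The H2O2 summit in NDUFB5 lay 49 bases from the annotated snoRNA LOC124906348, and the lowest-coordinate BHBNa summit in NDUFAF6 lay 75 bases from the snoRNA LOC124902084. Within the wider limit of 1 kb of an snoRNA lay 4 of 6232 peaks (0.0642%) in the H2O2-only list and 7 of 11464 (0.0611%) in the BHBNa list. These counts include the member peaks, and shares at 49 or 75 bases were not counted. The NDUFAF6 peak rested on 2 fragments, and the NDUFB5 peak had the high control background given above.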
